A study of Mus musculus with 9 samples.

Results

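Testosterone replacement was compared with castration alone in the gastrocnemius, a calf muscle with mostly fast fibres, of CD-1 mice, which are outbred and were young adults. The comparison held 6 of the 9 arrays of the study, chosen by sample title: 3 from mice that were castrated and given a 2.5 mg testosterone pellet with 60-day release, and 3 from mice that were castrated and given a placebo pellet. Both groups had therefore lost the testes, and muscle was taken at day 14 after surgery and pellet implantation. The other 3 arrays came from mice with sham surgery and a placebo pellet. Each array held RNA pooled from 3 mice, so an SD below is the spread between pools and 3 arrays per group limit the precision. Values are log2 expression per gene as the authors' RMA summary gave them, for 18193 genes with a probe set of their own, and a step of 1 is a 2-fold change. Markers of muscle fibres were bright on all 9 arrays, with the fast myosin Myh4 between 13.67 and 13.83.

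Testosterone acts through a nuclear receptor in muscle fibres, satellite cells and other cells of the tissue, and the bound receptor changes transcription at response elements in DNA. In muscle it is known as an anabolic hormone that favours protein accretion, while its loss lowers muscle mass. Perineal muscles depend on it most strongly, whereas limb muscles such as the gastrocnemius respond more modestly. In bulk tissue, fewer cells of a type and less RNA per cell cannot be told apart.

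One testosterone array differed from the others in RNA quality. The difference between the 3' and 5' control probe sets of Gapdh, which grows as transcripts break, was 1.10 on testosterone 2 and between 0.02 and 0.28 on the other 8 arrays. The same difference for beta-actin was 1.56 on testosterone 2 and between 0.20 and 0.68 elsewhere. Testosterone 2 had the highest value for both controls, and also the highest Myh7, Cd74 and Adipoq levels of its group, described below. On this array 310 genes lay at least 1 log2 unit from the mean of the other testosterone arrays, against 72 for testosterone 1 and 83 for testosterone 3. Sham 2, which enters the test only through the shared spread, had the lowest mean correlation with the other arrays (0.973), followed by testosterone 2 (0.983), and the remaining 7 lay between 0.990 and 0.991. The leading results are therefore given with and without testosterone 2.

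**Figure D1:**
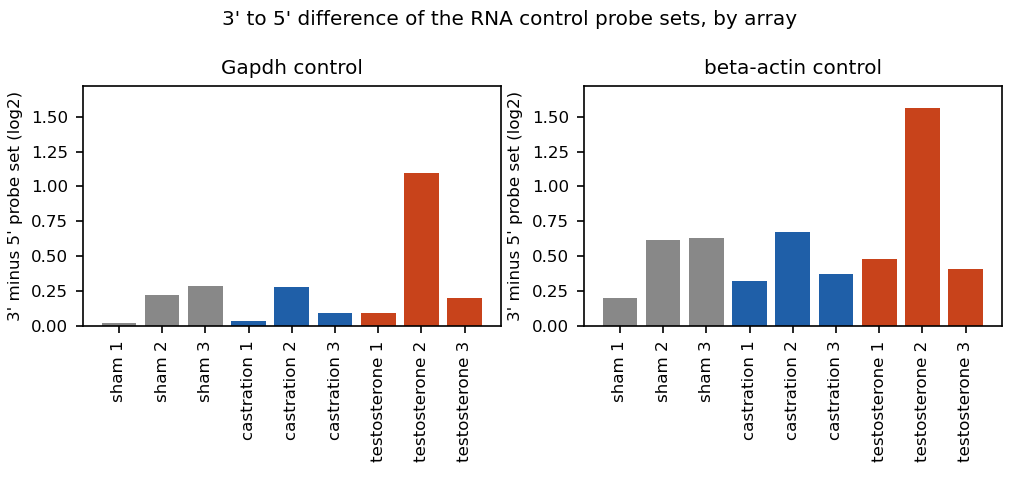
The 3' minus 5' difference (log2) of the Gapdh and beta-actin control probe sets is drawn as a bar for each of the 9 arrays, coloured by group. Testosterone 2 stands at 1.10 and 1.56, above every other array.

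In the limma test over all 9 arrays, 0 of 18193 genes (0%) passed an adjusted p of 0.05, and the smallest adjusted p was 0.0610, shared by the leading genes. Before adjustment, 299 genes were higher with testosterone at p under 0.05 (1.64%) and 334 lower (1.84%), together 3.48%, and 48.3% of all genes had a difference above 0. The 3 testosterone arrays lay wholly above the castration arrays for 768 genes (4.22%) and wholly below for 872 (4.79%), together 9.01%. Without testosterone 2, 0 genes passed again, and 481 reached an unadjusted p under 0.05 (2.64%; 1.20% higher and 1.45% lower), with 48.4% above 0. When the spread was taken from the castration and testosterone arrays alone, 12 genes passed, 10 higher and 2 lower. With testosterone 2 left out of that fit as well, 12 passed again, and 6 were called in both: Smox, Spns2, Slc38a2, Slc2a3, Inmt and Fkbp5, all higher with testosterone. Leaving out sham 2 and testosterone 2 together gave 20 higher (0.110%) and 7 lower (0.0385%), together 0.148% of genes.

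Differences of at least 2-fold were found in 61 genes, and 52 of these had groups without overlap, 34 higher (0.187% of all genes) and 18 lower (0.0989%). Of the 61, 33 were still at least 2-fold apart in the same direction without testosterone 2. All 633 genes at an unadjusted p under 0.05 kept their sign without that array, and 341 of them stayed under 0.05. They were chosen by p with testosterone 2 included, which makes a turned sign unlikely. The kept signs are therefore no test of independence from that array. In the plot of differences with and without testosterone 2, the leading genes lie near the diagonal. These were chosen by small p with that array included, so their closeness to it follows in part from the choice.

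**Figure D2:**
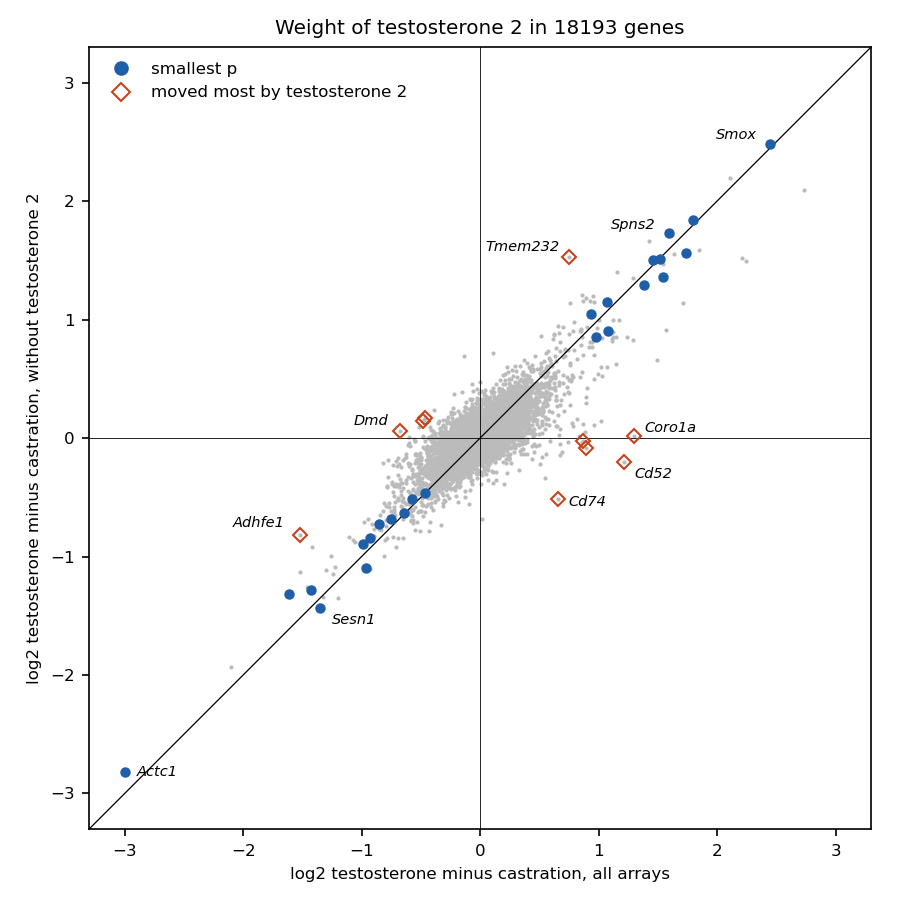
Each grey point is 1 of 18193 genes, with its log2 difference, testosterone minus castration, over all arrays on the x axis and without testosterone 2 on the y axis, and the line marks equal values. Filled points, the 24 leading genes, stay near the line (Smox 2.45 and 2.49, Actc1 −3.0 and −2.82), while open diamonds, the genes moved most by testosterone 2, leave it (Cd52 1.22 and −0.20). Both sets were chosen from these data, by p and by the size of the move, so the contrast follows in part from the choice.

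Smox, an enzyme of polyamine metabolism, had the smallest p among genes higher with testosterone. Polyamines are small cations made from ornithine that growing cells need. It encodes spermine oxidase, which turns spermine back into spermidine. Smox was at 7.48, 8.09 and 8.03 on castration 1 to 3 and at 10.15, 10.24 and 10.55 on testosterone 1 to 3. Every testosterone array was thus more than 2 log2 units above the castration arrays, and the sham arrays, at 10.63, 9.65 and 10.09, were also above every castration array. The difference was 2.45 (SE 0.26), a 5.45-fold level, with an adjusted p of 0.0610, and it was 2.49 without testosterone 2. Smox passed in 10 of the 22 alternative settings of the fit, more than any other gene. Its second probe set was dim, between 2.48 and 2.84, so the mean over its probe sets differed by 1.32.

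Odc1, ornithine decarboxylase, makes the first polyamine and is rate-limiting in that synthesis. It was at 8.28, 8.69 and 8.73 on the castration arrays and at 9.94, 10.09 and 10.22 with testosterone, which did not overlap. Its difference was 1.52 (SE 0.22, adjusted p = 0.103) and 1.51 without testosterone 2, and all 3 of its probe sets agreed in sign. Of the 17 measured genes of the polyamine list, 2 were higher and 1 lower at an unadjusted p under 0.05, against 3.48% of all genes, and 14 did not reach it. The lower member was Oaz2, an antizyme that restrains ornithine decarboxylase, at −0.28. Srm, spermidine synthase, differed by −0.24, or −0.31 without testosterone 2, on overlapping arrays. The list's median was −0.01, as it was for all genes.

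Several transporters were also among the leading genes. Spns2, which exports the lipid mediator sphingosine 1-phosphate, was at 6.08, 6.15 and 6.27 after castration and at 7.82, 7.50 and 7.97 with testosterone. The difference of 1.60 (SE 0.19, adjusted p = 0.0610) was 1.73 without testosterone 2. Slc30a2, a zinc exporter of intracellular vesicles, was at 4.04, 4.30 and 4.61 after castration and at 6.12, 6.03 and 6.20 with testosterone. That difference of 1.80 (SE 0.23, adjusted p = 0.0610) was 1.84 without testosterone 2. In both genes sham 2 was the lowest sham array, at 7.25 and 5.03, yet above every castration array.

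Slc38a2, a sodium-coupled transporter of neutral amino acids, stood at 7.72, 8.02 and 7.79 after castration. With testosterone it stood at 9.21, 9.02 and 9.17, a difference of 1.29 (SE 0.25, adjusted p = 0.287) that became 1.35 without testosterone 2. Sham 2, at 8.02, was level with the highest castration array while the other sham arrays were at 8.89 and 9.11, and this sham spread enters the shared error. Slc7a2, a transporter of arginine and other cationic amino acids, went the other way, from 7.63, 7.64 and 7.38 to 6.69, 6.36 and 6.63 (difference −0.99, adjusted p = 0.0804, and −0.89 without testosterone 2). Of its 4 probe sets, 3 had this sign. The glucose transporter Slc2a3 was at 3.75, 4.06 and 4.16 after castration and at 6.37, 5.94 and 6.0 with testosterone. Its difference of 2.11 carried a wide SE of 0.47 (adjusted p = 0.497), with sham 2 at 4.14 and the other sham arrays at 6.07 and 6.14. Of 4 Slc2a3 probe sets, 3 had this sign, and 2 of the 4 stayed below 3.5 on all arrays. Of 20 genes of the amino acid transport list, 2 were higher and 1 lower at an unadjusted p under 0.05, against 1.64% and 1.84% of all genes, the second higher one being Slc38a3, a glutamine transporter, at 0.48.

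**Figure D3:**
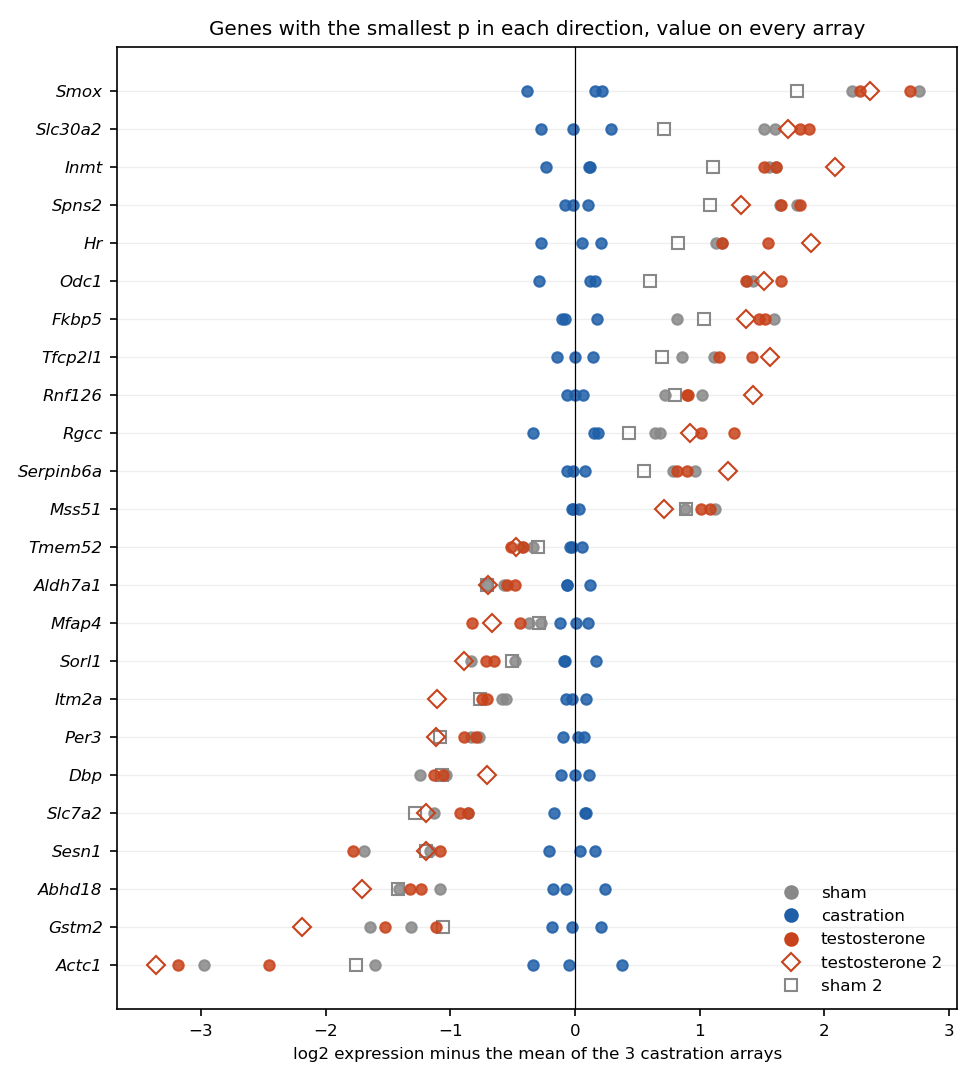
For the 12 leading genes on the higher and the 12 on the lower side by p, the log2 value on each of the 9 arrays is drawn relative to the mean of the 3 castration arrays, with sham in grey, castration in blue, testosterone in red, and open symbols for sham 2 and testosterone 2. In each of the 24 genes all testosterone arrays lie on 1 side of all castration arrays. They were chosen by small p on these same arrays, so this separation follows largely from the choice. Among all genes the share without overlap was 9.01%.

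Enzymes and metabolic proteins followed. Inmt, a methyltransferase that acts on indolethylamines such as tryptamine, was at 5.61, 5.25 and 5.60 after castration and at 7.10, 7.58 and 7.0 with testosterone. Its difference was 1.74 (SE 0.19, adjusted p = 0.0610) and 1.57 without testosterone 2, its highest array. Mss51, a mitochondrial protein of fast muscle, was bright and tight, at 10.99, 10.98 and 11.03 against 12.09, 11.71 and 12.01. Testosterone 2 was the lowest of its group there, and the difference of 0.94 (SE 0.11) became 1.05 without it. Nmrk2, a muscle kinase that makes a precursor of NAD from nicotinamide riboside, was at 6.95, 6.58 and 6.90 after castration and at 8.10, 8.24 and 8.95 with testosterone. This 3.08-fold level did not overlap with castration but had an adjusted p of 1.00, and the sham arrays spread from 7.32 to 9.63. Nmrk2 was the only member of the 17 measured NAD genes at an unadjusted p under 0.05 (5.88%, against 3.48% of all genes).

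Genes of hormone response were next. Fkbp5 encodes an immunophilin that binds steroid receptor complexes and is induced by androgens and glucocorticoids. It was at 6.30, 6.32 and 6.58 after castration and at 7.87, 7.78 and 7.92 with testosterone (SD 0.075 over the testosterone arrays). The difference was 1.46 (SE 0.18, adjusted p = 0.0610), or 1.5 without testosterone 2, and all 3 probe sets had this sign. Hr, a corepressor of nuclear receptors known from hair growth, was at 4.88, 5.21 and 5.37 against 6.33, 7.05 and 6.70. Its difference of 1.54 became 1.36 without testosterone 2, and its second probe set was dim and did not share the sign. Zbtb16, a zinc finger factor induced by steroids, differed by 1.15 with all arrays and 0.85 without testosterone 2, where it stood highest at 8.94. Hsd11b1, which regenerates active glucocorticoid, differed by 1.08 (adjusted p = 0.754).

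Of the 35 measured genes of the androgen response list, 8 were higher and 0 lower at an unadjusted p under 0.05, against 1.64% of all genes in that direction, and 27 did not reach it. Without testosterone 2 it was 7 higher and 0 lower. The list's median was 0.05, against −0.01 for all genes. Beside Smox, Fkbp5, Odc1, Slc38a2 and Zbtb16 the higher members were Pdlim5 (0.38), Tsc22d1 (0.21) and Pmepa1 (0.54). Of 24 glucocorticoid response genes 3 were higher and 2 lower, against 1.64% and 1.84% of all genes. These were Fkbp5, Zbtb16 and the metallothionein Mt1 (0.79, or 0.52 without testosterone 2) on the higher side and Klf15 (−0.38) and Per1 (−0.71) on the lower. Of 18 steroid receptors and coregulators 2 were higher and 2 lower, with the same shares of all genes, the higher ones being Hr and Hsd11b1. The 2 lower ones were Esr1, an oestrogen receptor, at −0.73, and Nr3c1, the glucocorticoid receptor, at −0.51 with all arrays and −0.28 without testosterone 2. These lists share genes, so their counts are not separate. They were also chosen with earlier results of these data known, so the counts are no test of enrichment.

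The remaining genes of the 12 with the smallest p on the higher side serve varied roles. Tfcp2l1, a transcription factor known from kidney and stem cells, was at 3.72, 3.57 and 3.43 against 4.99, 5.14 and 4.73, a difference of 1.38 (adjusted p = 0.0610) that was 1.29 without testosterone 2. Its castration values were near the array medians, where the size of a difference is least certain. Of its 3 probe sets, 2 had the sign of the difference. Serpinb6a, an intracellular protease inhibitor, differed by 0.98, Rnf126, a ubiquitin ligase of protein quality control, by 1.08, and Rgcc, a cell cycle regulator, by 1.07. Adjusted p was 0.0804 for Serpinb6a and Rnf126 and 0.106 for Rgcc. Without testosterone 2 these became 0.86, 0.90 and 1.15, so testosterone 2 raised the first 2 and lowered Rgcc.

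Dbp and Per3, both of the circadian clock, were lower with testosterone. Dbp encodes a PAR bZip factor that activates genes through D-box sequences, and its own level swings strongly over the day. It was at 8.97, 9.08 and 8.85 after castration and at 7.91, 8.26 and 7.83 with testosterone, where the sham arrays were at 7.72, 7.90 and 7.93. The difference was −0.97 (SE 0.13, adjusted p = 0.0610) and −1.10 without testosterone 2. Per3, a period protein of the clock, was at 5.33, 5.28 and 5.16 against 4.46, 4.15 and 4.37, with all 6 probe sets of 1 sign. Its difference was −0.93 (SE 0.12) and −0.84 without testosterone 2. Of 22 measured clock genes 4 were lower and 2 higher at an unadjusted p under 0.05, against 1.84% and 1.64% of all genes. The other lower ones were Ciart, a clock repressor (−0.42), and Per1, a period protein (−0.71). The higher ones were Nfil3, a repressor that also binds D-boxes (0.45), and Arntl, the core activator Bmal1 (0.76). The labels give no time of day for the tissue, so its part in these values was not tested.

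The Per3 promoter is shown because Dbp and Per3 were both lower and D-boxes are the sequences Dbp binds, and those of Fkbp5 and Smox because they lead the hormone response and polyamine genes. The windows run from 250 bases before to 50 after the start site and come from RefSeq on build GRCm38.p6. Both strands were searched for TTATGTAA (a D-box), CACGTG (an E-box, bound by the core clock factors), AGAACA (the hexamer of an androgen response element) and for the full androgen response element, in which that hexamer and its reverse complement lie 3 bases apart. Capitals mark matches. Per3 lies at chr4:151044616-151044915 on the minus strand and held 2 D-boxes, starting 205 and 158 bases before the start site. Fkbp5 lies at chr17:28486100-28486399 on the minus strand and held 1 E-box, starting 169 bases before it. Smox lies at chr2:131491612-131491911 on the plus strand and held none of these letters.
Per3: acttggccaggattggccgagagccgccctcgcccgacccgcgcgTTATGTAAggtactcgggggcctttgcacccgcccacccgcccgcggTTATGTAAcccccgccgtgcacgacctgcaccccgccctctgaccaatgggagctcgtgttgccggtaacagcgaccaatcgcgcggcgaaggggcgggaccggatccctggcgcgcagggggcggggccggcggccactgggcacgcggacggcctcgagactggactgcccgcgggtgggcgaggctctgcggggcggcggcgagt
Fkbp5: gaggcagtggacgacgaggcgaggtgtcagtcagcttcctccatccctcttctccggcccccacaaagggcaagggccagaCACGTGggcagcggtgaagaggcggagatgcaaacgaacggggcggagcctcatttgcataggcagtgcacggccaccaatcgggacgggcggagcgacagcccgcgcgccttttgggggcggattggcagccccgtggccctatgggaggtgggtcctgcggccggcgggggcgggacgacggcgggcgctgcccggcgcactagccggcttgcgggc
Smox: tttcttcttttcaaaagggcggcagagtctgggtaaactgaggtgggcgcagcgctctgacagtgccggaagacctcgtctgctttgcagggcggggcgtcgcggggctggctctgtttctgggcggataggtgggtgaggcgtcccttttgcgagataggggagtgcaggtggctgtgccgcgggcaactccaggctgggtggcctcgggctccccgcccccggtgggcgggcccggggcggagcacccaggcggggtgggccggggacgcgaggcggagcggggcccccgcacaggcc
A D-box was present in 0.938% of the 32851 promoter windows, an E-box in 7.15%, the hexamer in 19.0% and the full androgen element in 0.00913%. The windows of Odc1, Dbp and Actc1 held none of the motifs searched. A match describes the letters only, and binding was not measured.

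Genes of muscle development were also among those lower with testosterone. Actc1 encodes the cardiac alpha-actin, which skeletal muscle makes during development and regeneration before the adult skeletal actin replaces it. It was at 10.73, 10.02 and 10.30 after castration and at 7.90, 6.98 and 7.17 with testosterone, an 8.0-fold lower level. The sham arrays spread from 7.37 to 8.74, below every castration array. The difference was −3.0 (SE 0.38, adjusted p = 0.0610) and −2.82 without testosterone 2. Mybph, a myosin binding protein, showed a like pattern, at 10.30, 10.55 and 10.72 against 9.05, 8.08 and 8.13, and was singled out after its values were seen. Myog, the myogenic factor that also responds to loss of nerve input, was at 5.93, 5.46 and 5.28 against 4.49, 4.97 and 4.40 (difference −0.93, adjusted p = 0.393, and −1.11 without testosterone 2).

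Of 28 myogenic and regeneration genes 3 were higher and 2 lower at an unadjusted p under 0.05, against 1.64% and 1.84% of all genes, and the 2 lower ones were Actc1 and Myog. Des, the muscle intermediate filament, differed by 0.24 and Itga7, a laminin receptor of fibres, by 0.32. The third was Mef2d, a transcription factor of muscle genes (0.28). Des and Itga7 were highest on testosterone 2, and without it they differed by 0.16 and 0.21. Of 22 neuromuscular junction genes 0 were higher and 3 lower (1.84% of all genes), Myog, Gadd45a at −0.37 and Chrna1, a subunit of the acetylcholine receptor, at −0.34. Of 10 satellite cell markers 1 was higher, Itga7, which also stands in the myogenic list. The adult fast myosins differed by 0.08 (Myh1), −0.10 (Myh2) and −0.02 (Myh4), or 0.02, −0.16 and −0.02 without testosterone 2, none at an unadjusted p under 0.05, and the sign of Myh4 turned to 0.02 after renewed quantile normalisation.

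Genes of protein breakdown went both ways. Fbxo32, the muscle ubiquitin ligase atrogin-1, was at 10.23, 10.01 and 10.15 after castration and at 11.12, 10.79 and 10.62 with testosterone. All testosterone arrays lay above both other groups, sham being at 10.39, 10.42 and 10.05, and the difference was 0.71 (SE 0.15, adjusted p = 0.457), or 0.74 without testosterone 2. Trim63, the ligase MuRF1, differed by 0.29 and also did not overlap, at 9.54, 9.61 and 9.56 against 10.03, 9.86 and 9.68. Both ligases are known as markers of muscle atrophy. Sesn1, a stress protein that restrains mTOR, was lower, at 7.72, 7.84 and 7.47 against 6.60, 6.48 and 5.90. Its difference of −1.35 (SE 0.21, adjusted p = 0.132) was −1.43 without testosterone 2, and all 4 probe sets had this sign. Ctsl, the lysosomal protease cathepsin L, differed by −1.07, or −0.86 without testosterone 2, its lowest array at 8.81.

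Of the 36 measured genes of the atrophy, ubiquitin and autophagy list 3 were higher and 4 lower at an unadjusted p under 0.05, against 1.64% and 1.84% of all genes, and the median was −0.04. Without testosterone 2 it was 2 higher and 4 lower with a median of 0.00. Of 31 proteasome subunits 0 were higher and 1 lower. Of 31 measured IGF, insulin and mTOR genes 0 were higher and 4 lower, against 1.64% and 1.84% of all genes. These were Ddit4l, an mTOR inhibitor of muscle, at −0.47, Grb10, which restrains insulin and IGF receptors, at −1.11, the binding protein Igfbp5 at −0.79, and Igf2 at −0.45. Without testosterone 2, Ddit4l stayed at −0.47, while Grb10 became −0.83, Igfbp5 −0.40 and Igf2 −0.32, and the list's median went from −0.14 to −0.02. Only 1 of 3 Grb10 probe sets had this sign, the others being dim. Igf1 was at 6.34, 4.87 and 6.54 with testosterone against 6.61, 6.94 and 6.28, so its difference of −0.69 rested on testosterone 2 and was −0.17 without it.

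Of 27 activin and TGF-beta genes 2 were higher and 4 lower, against 1.64% and 1.84% of all genes. Ltbp3, a latent binding protein, was the other higher one (0.45, or 0.27 without testosterone 2) beside Smad3, and Smad2 was lower (−0.47, or −0.26). The remaining lower ones were the ligands Bmp4 (−0.44) and Tgfb3 (−0.49) and the latent binding protein Ltbp4 (−0.81). Smad3, the intracellular mediator, differed by 0.38, a sign that 1 of its 3 probe sets had. Of 32 calcium handling genes 1 was higher and 5 were lower, against 1.64% and 1.84% of all genes. The higher one was Nfatc2 (0.48, 0.26 without testosterone 2, and −0.024 with its probe sets averaged). The lower ones were the channel adaptor Stac3 (−0.19), the voltage sensor subunits Cacnb1 (−0.51) and Cacna1s (−0.30), the calcineurin subunit Ppp3ca (−0.21) and the calcium store protein Casq1 (−0.23). Without testosterone 2 that count was 0 higher and 2 lower, and the differences of Cacnb1, Cacna1s, Ppp3ca and Casq1 were −0.46, −0.25, −0.22 and −0.18.

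Other leading genes on the lower side serve varied roles. Abhd18, of unsettled function, was at 4.55, 4.86 and 4.45 against 3.30, 2.91 and 3.38 (difference −1.42, adjusted p = 0.0610), and its testosterone values lay near the array medians. Of its 3 probe sets, 2 had this sign. Gstm2, a glutathione transferase, was at 8.12, 8.29 and 8.52 against 7.19, 6.12 and 6.79. Its difference of −1.61 (SE 0.26, adjusted p = 0.152) was −1.32 without testosterone 2. Itm2a, a membrane protein of differentiating muscle and cartilage, differed by −0.85, Sorl1, a sorting receptor, by −0.75, and Aldh7a1, an aldehyde dehydrogenase, by −0.58. Of the 3 Sorl1 probe sets, 2 had this sign. Tmem52 differed by −0.47 and Mfap4, a microfibril protein, by −0.64 at a dim level between 3.48 and 4.40. Without testosterone 2 these 5 differences lay between −0.72 and −0.47.

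Lpin1, a phosphatidate phosphatase and coregulator, was at 9.30, 9.39 and 9.30 against 10.06, 9.83 and 9.99, a difference of 0.63 (SE 0.10, adjusted p = 0.118) that was 0.69 without testosterone 2. Srebf1, a driver of lipogenic genes, differed by 0.53 on arrays that did not overlap. Scd1, stearoyl-CoA desaturase, was at 6.76, 7.10 and 6.20 against 9.87, 10.71 and 7.69, and Dgat2, of triglyceride synthesis, was highest on testosterone 2 at 8.60. The Scd1 difference was 2.73 (SE 0.83) with all arrays and 2.09 without testosterone 2. Of 35 measured lipid and sterol genes 5 were higher and 0 lower at an unadjusted p under 0.05, against 1.64% and 1.84% of all genes, and 3 and 0 without testosterone 2, where the median went from 0.20 to 0.11.

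Those arrays also differed in fat markers. The mean deviation of 14 adipocyte markers was −0.48, −0.52 and −0.48 on castration 1 to 3 and 0.27, 0.90 and −0.41 on testosterone 1 to 3. Adipoq, the adipocyte hormone adiponectin, was at 8.47, 9.21 and 5.45 with testosterone against 5.54, 5.58 and 5.29, a difference of 2.24, or 1.49 without testosterone 2. Testosterone 3 was thus close to castration in both, and Adipoq overlapped between the groups. Of the 14 markers 13 were above 0, 2 of them at an unadjusted p under 0.05 (Adipoq and Pck1), and 1 was lower, Car3, which fibres also express, against 48.3%, 1.64% and 1.84% of all genes. Without testosterone 2, 0 markers reached it in either direction and the median went from 0.72 to 0.28. Lep, the hormone leptin, was at 2.89 on testosterone 3 and between 2.80 and 2.91 after castration. Pck1 was dim too, between 2.49 and 4.05 on the 9 arrays. The part of fat in the lipid genes was not tested.

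**Figure D4:**
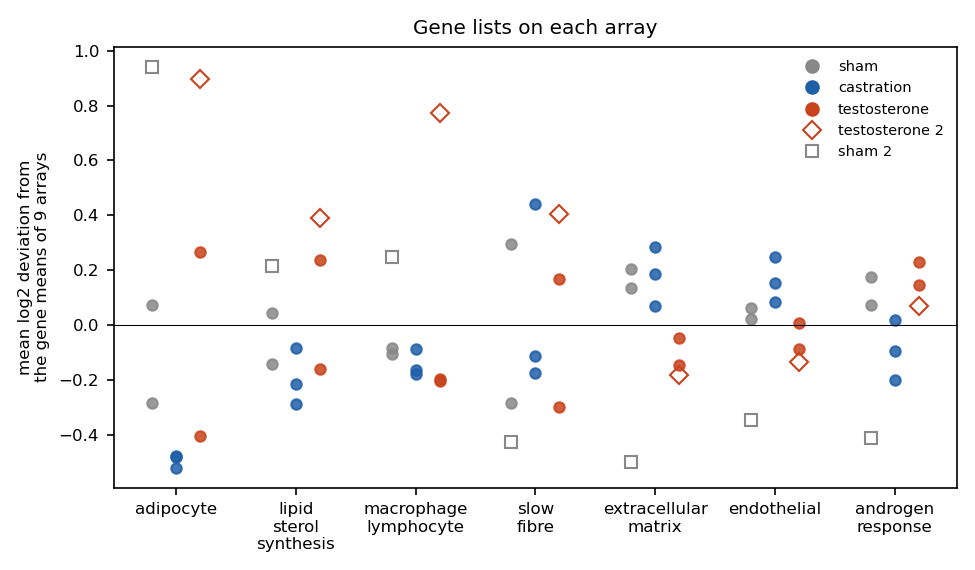
The mean log2 deviation of each list's genes from their means over 9 arrays is drawn for every array, with sham, castration and testosterone side by side and open symbols for sham 2 and testosterone 2. Adipocyte markers on testosterone 2 (0.90) and macrophage and lymphocyte markers on the same array (0.77) stand far above the other testosterone arrays. Extracellular matrix genes on the 3 testosterone arrays (−0.18 to −0.05) lie below all castration arrays (0.07 to 0.29). On sham 2 the matrix genes stand lower still (−0.50), while sham 1 and sham 3 are at 0.136 and 0.205. Adipocyte markers on sham 2 stand at 0.94.

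Ppp1r3c, which directs a phosphatase to glycogen, was at 10.72, 10.91 and 10.65 against 11.51, 11.25 and 11.78 (difference 0.75, adjusted p = 0.278), although its dimmer second probe set differed by −0.15, or 1.05 without testosterone 2. Fbp2, the gluconeogenic enzyme of muscle, differed by 0.59 and Pfkfb3, a regulator of glycolysis, by −0.53, or −0.31 without testosterone 2. Of 30 glycolysis and glycogen genes 3 were higher and 4 lower, against 1.64% and 1.84% of all genes. Of 45 respiratory chain and ATP synthase genes 0 were higher and 3 lower (1.84% of all genes), Sdhc (−0.50), Sdhb (−0.33, or −0.21 without testosterone 2) and Cox6a2 (−0.20). Testosterone 2 was the lowest array for all 3 of them, and without it the count was 0 higher and 1 lower. Of 29 fatty acid oxidation genes 0 reached an unadjusted p under 0.05. Ppargc1a, a coactivator of mitochondrial genes, was at 7.60, 7.91 and 7.14 against 8.33, 8.35 and 7.88, a difference of 0.63 with overlapping arrays.

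Extracellular matrix genes were lower as a group. Of 50 measured members, 45 were below 0 and 11 were lower at an unadjusted p under 0.05, against 1.84% of all genes, with 0 higher. In 18 members the 3 testosterone arrays lay below the castration arrays, and in 0 above, against 4.79% and 4.22% of all genes. Without testosterone 2 it was 10 lower and 0 higher, and the median was −0.21 with all arrays and −0.22 without that array. This list, too, was chosen with earlier results of these data known. Its mean deviation was −0.50 on sham 2, below every testosterone array (−0.18 to −0.05). Col1a1, the main chain of type I collagen, was at 9.42, 9.57 and 9.09 against 8.31, 7.92 and 8.11, a 2.37-fold lower level (SE 0.35 log2, adjusted p = 0.873). Col3a1, of type III collagen, differed by −0.57, Sparc, which binds collagen, by −0.66, and Col14a1 by −0.85. Sham 2 was the lowest sham array for these 4 genes, and its Col1a1 value of 7.95 lay among the testosterone arrays. None of the 4 passed in the unweighted limma fit over all 9 arrays. Col1a1 did pass with array weights, without sham 2, and without sham 2 and testosterone 2 together. All 4 kept differences between −1.15 and −0.53 without testosterone 2.

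Of 15 fibroblast markers 4 were lower (1.84% of all genes), all of them also in the matrix list, and 1 higher, Gsn (0.30; 1.64% of all genes), and the median went from −0.29 to −0.16 without testosterone 2. Lum, a collagen-binding proteoglycan, was at 7.04, 6.91 and 7.01 against 5.94, 4.68 and 5.77, a difference of −1.52 (−1.13 without testosterone 2). Of 14 tendon markers 0 were higher and 2 lower with all arrays, against 1.64% and 1.84% of all genes, and 0 and 0 without testosterone 2. Of 19 endothelial markers 18 were below 0, but only 1 lower at an unadjusted p under 0.05, Tie1 at −0.40 (0 without testosterone 2), and 1 higher, the junction protein Cldn5 at 0.38. Of all genes 48.3% were above 0, 1.84% were lower and 1.64% higher at that p. The endothelial median was −0.21, or −0.16 without testosterone 2. Whether there were fewer such cells was not tested.

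**Figure D5:**
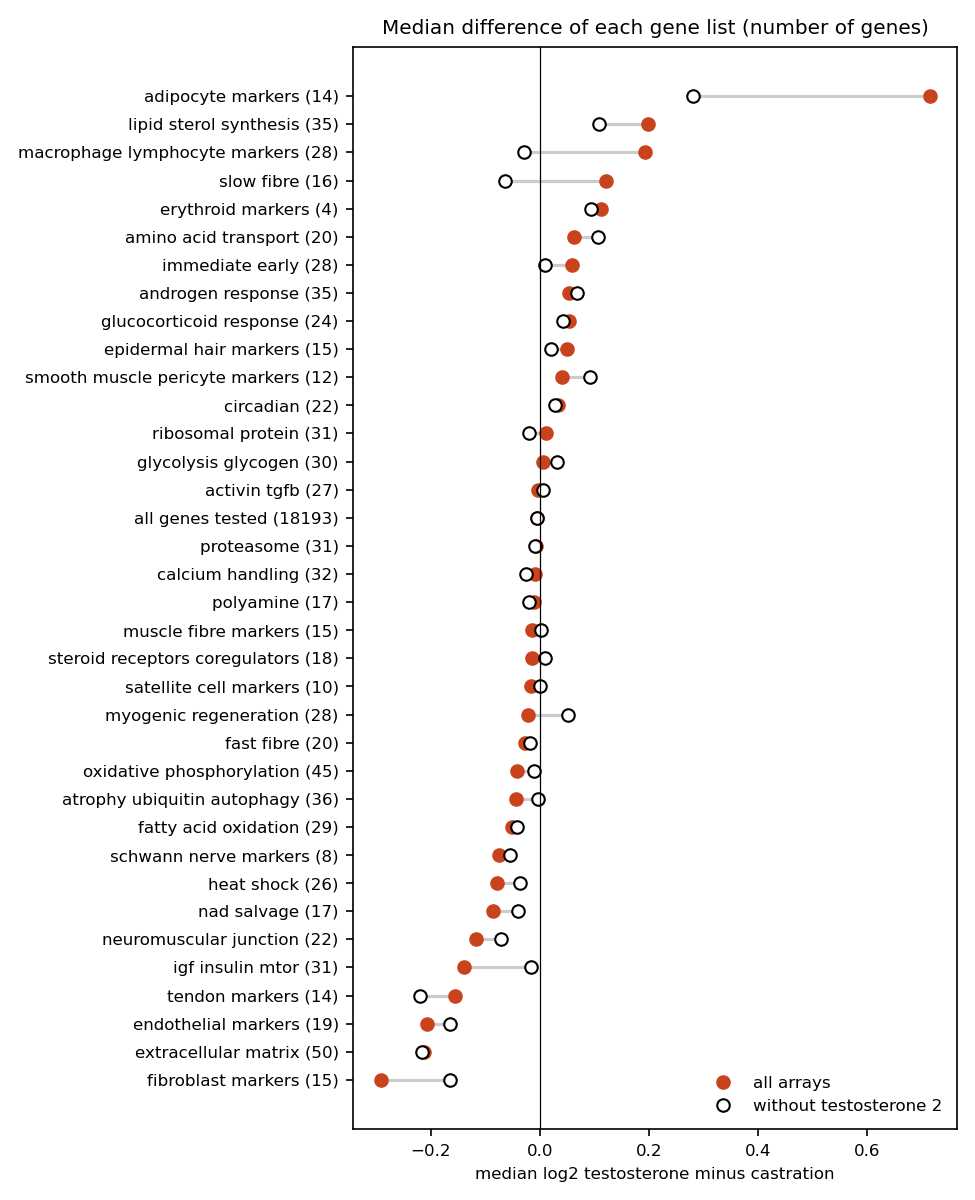
The median log2 difference, testosterone minus castration, of each gene list is drawn with all arrays (filled) and without testosterone 2 (open), with the number of measured genes in brackets and all 18193 genes as a row of their own. Extracellular matrix genes stay at −0.21 and −0.22, whereas the slow fibre median goes from 0.12 to −0.06 and that of macrophage and lymphocyte markers from 0.19 to −0.03.

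The medians of several lists turned sign when testosterone 2 was left out. The macrophage and lymphocyte markers had 24 of 28 members above 0 with all arrays (48.3% of all genes) and 12 of 28 without it (48.4%), and 0 members reached an unadjusted p under 0.05 in either case. Their mean deviation was 0.77 on testosterone 2 and −0.20 on testosterone 1 and on testosterone 3, against −0.18 to −0.09 on the castration arrays. Cd79a, of the B cell receptor, was at 5.72 on testosterone 2 and between 3.19 and 3.32 on the other 5 arrays compared, and its difference went from 0.84 to 0.02 without that array. Slow fibre genes had 11 of 16 members above 0 with all arrays and 5 of 16 without testosterone 2. Myh7, the slow myosin, was at 11.23, 12.60 and 11.90 against 12.01, 11.45 and 11.30, so the groups overlapped and the difference went from 0.33 to −0.02. Among them Myh7b, another slow-type myosin, was the 1 member at an unadjusted p under 0.05 (6.25%, against 3.48% of all genes). Myh7b differed by −0.32 with and without testosterone 2.

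Among the genes that testosterone 2 moved most, 5 known from white blood cells were higher on that array: Cd52, a lymphocyte surface protein, was at 7.26 there and at 3.14 and 2.89 on testosterone 1 and 3, and Coro1a, a leukocyte actin regulator, at 7.13 against 3.36 and 3.24. Cd74, the invariant chain of antigen presentation, was at 9.00 against 5.57 and 5.36, and Ptprc, the leukocyte marker CD45, at 5.87 against 2.88 and 2.99. A probe set listed to the T cell receptor segment Trav9d-3 was at 6.14 against 3.41 and 3.50. Without testosterone 2 the differences of these 5 went from 1.22, 1.30, 0.66, 0.89 and 0.87 to −0.20, 0.02, −0.52, −0.09 and −0.03. Sham 2 was above the other sham arrays in all 5 as well, at 5.94, 6.17, 8.27, 3.93 and 5.81.

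Other genes were lower on that array, and on sham 2 as well. Dmd, the very long dystrophin gene, was at 4.67 on testosterone 2 against 6.92 and 6.86, Tmed7, of vesicle traffic, at 5.09 against 7.08 and 6.90, and Pno1, of ribosome assembly, at 5.92 against 7.82 and 7.80. Their differences of −0.68, −0.46 and −0.49 became 0.06, 0.17 and 0.14 without it, and sham 2 was the lowest sham array for all 3 (5.65, 5.62 and 6.69). Adhfe1, a mitochondrial enzyme, was at 4.26 against 6.66 and 6.07, and stayed lower without it (−0.82 after −1.52), since castration was at 7.21, 7.12 and 7.24. Tmem232 ranged from 2.62 to 6.10 among the testosterone arrays, with a difference of 0.75 that was 1.53 without testosterone 2. The part of broken RNA in these values was not tested.

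Of 28 immediate early genes 4 were higher and 0 lower with all arrays, against 1.64% and 1.84% of all genes, Junb (0.29), Btg1 (0.60, or 0.37 without testosterone 2), Atf3 (0.58) and Ccn1 (0.56, or 0.32), each highest on testosterone 2, and 1 higher without it. Of 26 heat shock genes 0 were higher and 1 lower, of 20 fast fibre genes 0 and 1, and of 31 ribosomal protein genes 0 and 0. Of 15 markers of muscle fibres 0 were higher and 2 lower. The 12 smooth muscle and pericyte markers had 1 higher, Des. Epidermal, Schwann cell and erythroid markers, 15, 8 and 4 genes, had none at an unadjusted p under 0.05.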

How the data were processed

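Expression was measured on 9 Affymetrix arrays with 45101 probe sets. The deposited values are log2 expression per probe set made with RMA, per the submitters' processing notes, with no version given in the sources used here. RMA normalises all arrays together, so a poor array can move the others. Total RNA, 4 µg from each of 3 mice, was pooled per array and 12 µg were labelled, per the labels' protocols. The labels give no scan date or batch.

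Each gene was represented by its brightest probe set among the 34945 listed to 1 gene, while 932 list several and 9160 besides 64 controls are unlisted. Symbols were updated through gene identifiers, and 204 probe sets without a match kept theirs. Testosterone was compared with castration by limma 3.58.1 in R 4.3.3 on all 9 arrays, with group as the only term, two-sided, adjusted by Benjamini-Hochberg over 18193 genes at 0.05. With 3 arrays against 3, an exact permutation test of a single gene cannot go below 0.1. P-values measure the spread between pools, which the labels call independent biological replicates. The fit was tested on simulated data.

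Genes were named by rule: the 12 smallest p per direction, the 5 per direction moved most by leaving out testosterone 2, up to 4 members per list, and a fixed set, leaving out predicted names. Mybph and 11 list members (Pdlim5, Tsc22d1, Pmepa1, Per1, Arntl, Mef2d, Ltbp3, Smad2, Nfatc2, Stac3 and Gsn) were added after their values were seen, to complete counts. Members and 35 lists were chosen with earlier results of these data known, so their counts beside the shares of all genes only describe. No set test was made. Alternatives were other samples, weights, normalisations, filters, probe set rules, variance models and each array left out. The fit to the castration and testosterone arrays without testosterone 2 was chosen after seeing the data. Replicate numbers were not used as pairs in the fit described above. Deviations of same-numbered castration and testosterone arrays correlated at 0.00, 0.115 and 0.228, and those of differently numbered arrays between −0.316 and 0.149. These values cannot settle whether the arrays were paired.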

Additional observations from a re-analysis of the deposited data

How the results depend on the processing

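The count of genes passing moved from 0 to 12 with only the castration and testosterone arrays, with or without testosterone 2, 59 with array weights, 27 without sham 2 and testosterone 2, 22 after renewed quantile normalisation, 7 among genes with a mean of at least 5, 12 with an intensity trend, 2 when probe sets of a gene were averaged, and 0 to 28 leaving out 1 array (28 without sham 2, 3 without sham 1, 0 otherwise). All 27 were also called with weights. It was 0 with the replicate block, median centring, robust variances, unmoderated analysis of variance, all probe sets, and no probe sets with cross-hybridising suffixes. Genes at an unadjusted p under 0.05 numbered 633, and 1006 with the castration and testosterone arrays alone, 1019 with testosterone 2 left out of those, 1281 with weights, 1051 without sham 2 and testosterone 2, 307 among genes with a mean of at least 5, 1096 of all probe sets, 660 with the replicate block, and 394 to 1093 leaving out 1 array (394 without castration 1, 1093 without sham 2). Genes whose arrays did not overlap numbered 1640, 2654 to 3761 leaving out 1 array, where fewer arrays must separate, and 3140 without sham 2 and testosterone 2. Renewed quantile normalisation left the median of all genes at 0.00. Among 124 named genes, the sign of 12 turned in at least 1 setting. Both settings that leave out testosterone 2 with sham 2 or with all sham arrays turned Dmd (0.061), Tmed7 (0.17), Pno1 (0.14), Cd52 (−0.20), Cd74 (−0.52), Ptprc (−0.087), Trav9d-3 (−0.026), Myh7 (−0.020). Signs also turned for Cd74 with array weights (−0.019), Myh4 after renewed quantile normalisation (0.023), Myh4 with probe sets averaged (0.10), Nfatc2 with probe sets averaged (−0.024), Trav9d-3 without cross-hybridising probe sets (−0.033). Leaving out 1 array, the difference ranged from −0.20 to 1.99 for Cd52, −0.52 to 1.30 for Cd74, −1.06 to 0.061 for Dmd, −0.18 to 0.027 for Myh2, −0.042 to 0.012 for Myh4, −0.020 to 0.67 for Myh7, −0.81 to 0.14 for Pno1, −0.087 to 1.41 for Ptprc, −0.83 to 0.17 for Tmed7, −0.21 to 1.53 for Tmem232, −0.026 to 1.34 for Trav9d-3. The causes of these moves were not tested. Arrays carry no depth, and values near the array medians of 3.15 to 3.26 limit what dim genes show.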

Other observations

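Genes at least 2-fold apart with arrays that did not overlap, outside the naming rule, are given here as values and were chosen after these had been seen. Gbp6, an interferon-induced guanylate-binding protein, was at 6.0, 6.34 and 5.69 after castration and at 7.37, 7.83 and 7.75 with testosterone. Ifit3 and Irgm2, both also induced by interferon, went the other way, with differences of −1.26 and −1.23 (−1.0 and −1.09 without testosterone 2). Ifi27l2a, of the same kind, was at 7.19, 8.58 and 5.81 with testosterone against 4.90, 5.33 and 4.70, and like the fat markers it was lowest on testosterone 3. Its difference of 2.21 was 1.52 without testosterone 2. Genes known for interferon responses were thus found on both sides. Cyp2e1, a cytochrome P450, differed by 1.85 (1.59 without testosterone 2) and was also lowest of its group on testosterone 3, at 5.54.

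Signalling genes were among them too. Prkcd, a protein kinase C, was at 3.93, 3.83 and 4.18 against 5.23, 4.64 and 5.53, and Cdk19, a kinase of the Mediator complex, at 4.77, 4.98 and 4.63 against 6.58, 5.75 and 6.34. Both were lowest of their group on testosterone 2, and their differences of 1.15 and 1.43 were 1.40 and 1.66 without it. Of the 2 Prkcd probe sets, 1 had this sign. Cnksr1, a scaffold of Ras signalling, differed by 1.17 and Piezo1, a mechanosensitive channel, by 1.03 (1.00 and 0.84 without testosterone 2). Gadd45g, a stress gene, was at 7.78, 7.81 and 7.80 with testosterone against 7.21, 6.39 and 6.79. Thbd, the endothelial thrombomodulin, was at 6.18, 5.98 and 5.76 against 4.47, 4.68 and 4.79, a difference of −1.32 that was −1.34 without testosterone 2. Socs2, a brake on growth hormone signalling, differed by −1.46, and Tbc1d4, which controls glucose transporter traffic, by −1.06 (−1.25 and −0.88 without testosterone 2). In the unweighted limma fit of the deposited values over all 9 arrays, none of these reached an adjusted p under 0.05. In other settings Cnksr1, Thbd, Cdk19, Gbp6, Prkcd and Piezo1 did, each with array weights among them.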
